A study of Rattus norvegicus with 6 samples.

Results

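The genes described are 10 transporters and regulators of phosphate: the type II sodium-phosphate cotransporters Slc34a1, Slc34a2 and Slc34a3, the Slc17 transporters Slc17a1 and Slc17a3, the type III cotransporters Slc20a1 and Slc20a2, klotho (Kl), the FGF receptor Fgfr1 and the parathyroid hormone receptor Pth1r. They are represented by 19 of the 61537 non-control probes and make up 10 of the 15639 genes that a probe could be matched to by transcript accession. The set was chosen by the measured difference between the groups: in earlier results of these same arrays, Slc17a1 and Slc34a2 were higher in treated rats and Slc34a1 was not. The comparison between the groups is therefore given for the 10 genes as a description, with standard errors and without tests. All 10 genes passed the filter on dim probes, as did all 19 of their probes.

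The arrays measured RNA from the renal cortex of male Sprague-Dawley (Crl:CD(SD)) rats on a basal diet, bought at 5 weeks of age, with 1 single-colour (Cy3) Agilent array per animal. The vehicle group of 3 rats was given corn oil, and the other 3 rats were given thiobis(6-tert-butyl-m-cresol) in its 4,4' form, a phenolic antioxidant with a sulfur bridge (TBBC below), at 300 mg/kg/day. Both groups were dosed for 4 weeks. A level is the log2 of a probe's processed signal relative to the 75th percentile of its array, so a level of 0 is the signal at that percentile, and levels of different probes are not compared. Fold changes and their standard errors (SE) come from limma fitted over all 32962 transcripts tested.

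The kidney sets the phosphate content of the body by reabsorbing filtered phosphate across the brush border of the proximal tubule, mainly through NaPi-IIa (Slc34a1) and NaPi-IIc (Slc34a3). Parathyroid hormone, acting through Pth1r, and the bone hormone FGF23, acting through FGF receptors that carry klotho as coreceptor, both withdraw these cotransporters from the brush border. NaPi-IIb (Slc34a2) is best known from small intestine and lung, while Slc17a1 and Slc17a3 were first described as phosphate transporters and also carry urate and other organic anions.

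Sequence upstream of 5 genes is shown because Slc17a1, Slc17a3 and their neighbour Slc17a4 were all higher in treated rats, and because Slc34a2 and Slc34a1 are close relatives with different values. Each run is the 250 bases before the transcript start used in the RefSeq promoter table of build GRCr8, 5′ to 3′, and a gene can have other starts. Capitals mark matches, on either strand, to any of 6 motifs. These were the antioxidant response element with the letters TGACNNNGC, the AP-1 site with TGANTCA, the cAMP response element with TGACGTCA, the EGR1 site with GCGTGGGCG, the E-box with CACGTG and the TATA box with TATAAA. The windows are chr17:41635173-41635422, plus strand (Slc17a4), chr17:41681175-41681424, minus strand (Slc17a1), chr17:41723110-41723359, minus strand (Slc17a3), chr14:62143073-62143322, minus strand (Slc34a2) and chr17:9238984-9239233, minus strand (Slc34a1).
Slc17a4: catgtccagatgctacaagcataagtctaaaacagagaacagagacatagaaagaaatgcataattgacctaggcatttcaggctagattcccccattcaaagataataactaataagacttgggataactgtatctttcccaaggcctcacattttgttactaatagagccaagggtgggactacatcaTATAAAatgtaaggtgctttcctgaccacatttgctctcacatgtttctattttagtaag
Slc17a1: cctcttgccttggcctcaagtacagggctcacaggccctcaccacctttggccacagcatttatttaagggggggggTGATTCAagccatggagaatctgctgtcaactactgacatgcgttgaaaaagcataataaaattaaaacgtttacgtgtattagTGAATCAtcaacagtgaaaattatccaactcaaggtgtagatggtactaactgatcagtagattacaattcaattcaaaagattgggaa
Slc17a3: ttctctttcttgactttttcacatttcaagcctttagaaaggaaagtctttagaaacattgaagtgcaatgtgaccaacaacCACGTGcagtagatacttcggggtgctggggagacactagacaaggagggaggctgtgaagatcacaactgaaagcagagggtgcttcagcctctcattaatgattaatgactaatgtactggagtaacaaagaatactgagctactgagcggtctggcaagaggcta
Slc34a2: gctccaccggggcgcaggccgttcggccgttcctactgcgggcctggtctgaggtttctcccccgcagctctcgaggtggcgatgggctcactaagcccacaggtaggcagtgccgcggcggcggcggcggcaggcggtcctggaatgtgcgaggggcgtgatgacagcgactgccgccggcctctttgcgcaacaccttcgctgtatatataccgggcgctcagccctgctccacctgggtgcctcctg
Slc34a1: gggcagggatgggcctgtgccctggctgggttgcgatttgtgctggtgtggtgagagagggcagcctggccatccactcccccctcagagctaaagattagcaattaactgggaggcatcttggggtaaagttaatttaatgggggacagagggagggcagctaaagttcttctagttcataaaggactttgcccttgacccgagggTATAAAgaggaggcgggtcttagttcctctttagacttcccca

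Slc17a1 held 2 matches to the letters searched for AP-1, TGATTCA at 173 to 167 and TGAATCA at 89 to 83 bases before the start. The open letter N was thus T in one and A in the other. One or more matches with any letter at N occurred in 6.34% of 33469 promoter windows of the same length, and 2 or more in 0.311%. The E-box of Slc17a3 (168 to 163 bases before the start) has its motif in 5.59% of windows, and the TATA box of Slc34a1 (43 to 38 bases before) and of Slc17a4 (60 to 55 bases before) in 12.9%. The Slc34a2 window held no match to the letters searched for the 6 motifs. It does hold the run tatatata, a TATA-like stretch that the letters TATAAA do not cover. Its G or C share was 68.8%, against 53.2% for Slc34a1, 41.2% for Slc17a1, 43.6% for Slc17a3 and a median of 51.2% over all windows. Of the 7 genes of the set that were found in the promoter table, Pth1r was the one with an antioxidant response element match, at 33 to 25 bases before the start, a motif present in 10.1% of windows. A match describes letters and is not a measured binding site.

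The arrays were alike in brightness. Between 67.1% and 70.9% of probes were well above background, the 75th percentile of the signal ran from 861 to 1038, and no spot was saturated. Slide 1, scanned first, held TBBC 1 beside the 3 vehicle arrays, and slide 2 held TBBC 2 and TBBC 3 without any vehicle array, so the value of TBBC 1 against the vehicle rats is the comparison within a slide. All 10 marker genes of the proximal tubule were measured, and their summed linear signal was 1442 to 1474 times the 75th percentile in vehicle rats and 1086 to 1389 times in TBBC rats. No tested marker of any cell type list passed the threshold. Summed liver marker signal was 0.785 to 11.2 in vehicle rats and 8.81 to 125 in TBBC rats, highest in TBBC 2, although 4 of the 5 liver markers were lower on average in TBBC rats. In whole tissue, fewer cells of a type and less RNA per cell cannot be told apart. Of all transcripts, 0.531% passed an adjusted p of 0.05 (limma, Benjamini-Hochberg), which was 175 transcripts, and this count ran from 6 without vehicle 2 to 274 without TBBC 3.

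In the set as a whole, 5 genes had a higher mean in TBBC rats and 5 a lower one. Slc34a2, Slc17a1 and Slc17a3 were at least 2-fold higher and no gene was at least 2-fold lower, while 1.62% of all transcripts were at least 2-fold higher. The groups did not overlap in 6 genes, 3 higher (Slc34a2, Slc17a1, Slc17a3) and 3 lower (Slc34a3, Kl, Pth1r), where 28.3% of all transcripts did not overlap. The median log2 fold change was 0.07 over the 10 genes and -0.02 over all transcripts. Only Slc17a1 was past the limma threshold, 1 of 10 beside the 0.531% above, and since this contrast chose the genes nothing is read from that count. The count was 0 without vehicle 1 or vehicle 2, 1 without vehicle 3 (Slc34a2 in place of Slc17a1), 1 without TBBC 1 or TBBC 2 (Slc17a1) and 2 without TBBC 3 (Slc17a1 and Slc17a3). With normexp correction and with a trended, robust eBayes it was 3 (Slc34a2, Slc17a1 and Slc17a3).

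**Figure D1:**
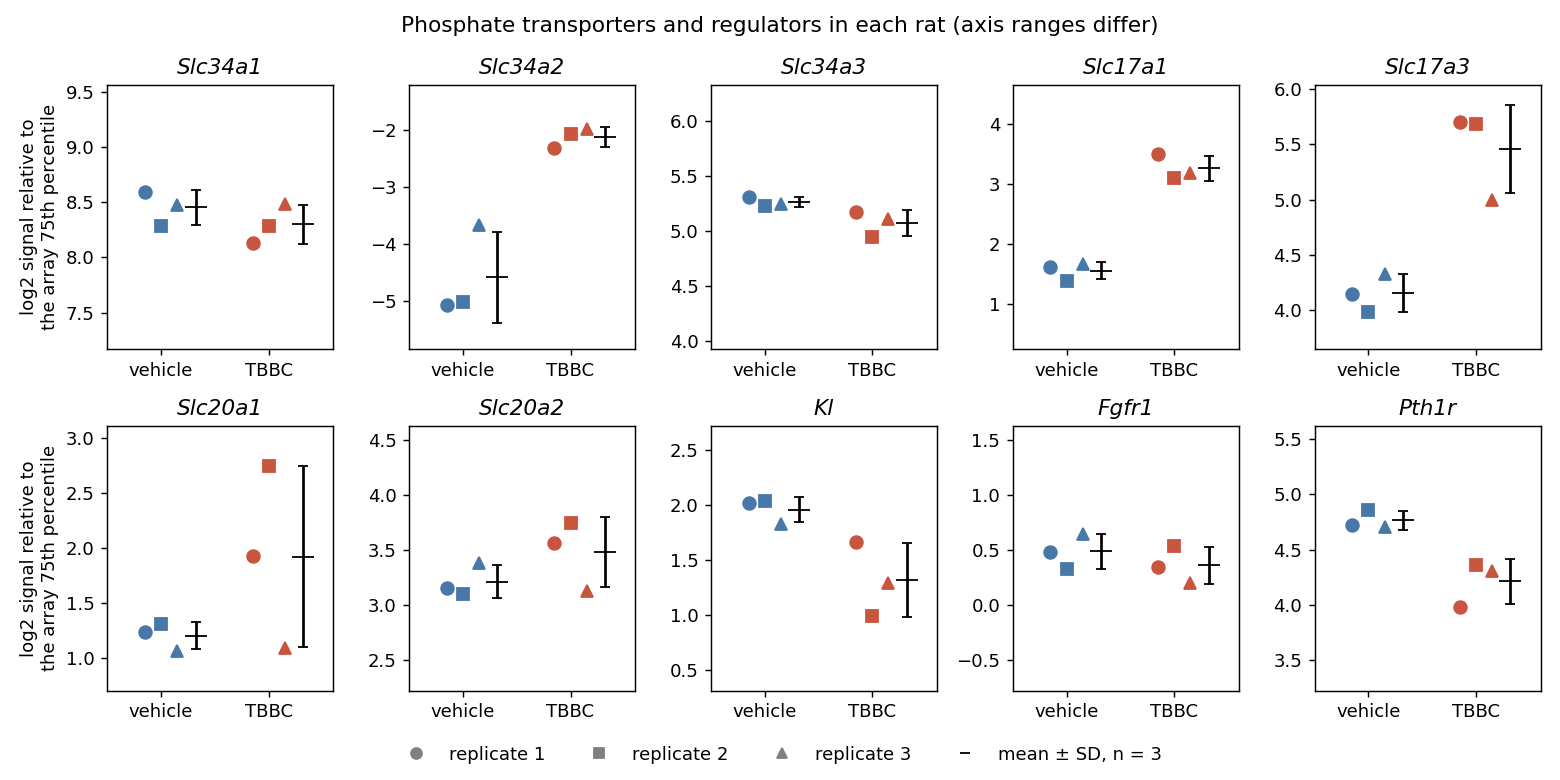
Log2 signal relative to the array's 75th percentile (y axis, each panel with its own range) of the 10 genes in each of 3 vehicle and 3 TBBC rats; marker shape gives the replicate number, and the bar beside each group is the mean ± SD (n = 3). The TBBC points of Slc34a2, Slc17a1 and Slc17a3 lie above all vehicle points, those of Kl, Pth1r and Slc34a3 lie below them, and the TBBC points of Slc20a1 spread from 1.09 to 2.74.

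The type II cotransporters of the brush border, Slc34a1 and Slc34a3, had small differences between groups, while Slc34a2 was 5.52-fold higher in TBBC. For Slc34a1 the levels were 8.60, 8.29 and 8.48 in vehicle rats 1 to 3 and 8.13, 8.29 and 8.49 in TBBC rats 1 to 3. The groups overlapped, TBBC 3 lying above 2 of the 3 vehicle rats, and the log2 fold change was -0.15 ± 0.14 (SE). It was -0.07 without TBBC 1, -0.08 without vehicle 1, -0.24 without vehicle 2 or TBBC 3, -0.28 with normexp correction, and -0.32 for TBBC 1 within the shared slide. The dimmer Slc34a1 probe gave a larger difference, -0.58, with 7.17, 7.13 and 6.72 in vehicle rats and 6.25, 6.31 and 6.71 in TBBC rats. On that probe the groups were apart by the narrow gap between vehicle 3 and TBBC 3, so the size of the Slc34a1 difference depended on the probe, and with the mean of both probes it was -0.37.

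Slc34a3, which encodes the second brush border cotransporter, was at 5.31, 5.23 and 5.25 in vehicle rats and 5.17, 4.94 and 5.11 in TBBC rats. All TBBC rats were below all vehicle rats, but the difference was small, with a log2 fold change of -0.19 ± 0.11 (SE). Within the shared slide TBBC 1 was 0.09 below the vehicle mean, and without TBBC 2 the log2 fold change was -0.12.

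Slc34a2 was dim in vehicle rats, at -5.07, -5.02 and -3.66, and was at -2.31, -2.07 and -1.98 in TBBC rats. Vehicle 3 stood above the other two vehicle rats, giving that group an SD of 0.80, whereas the TBBC rats lay close together (SD 0.17, n = 3 each). The log2 fold change was 2.46 ± 0.39 (SE), 2.93 without vehicle 3, and 1.49 with normexp background correction and quantile normalization, in which an offset of 50 is added to the signal. Its second probe was well above background in 1 of 3 vehicle rats, vehicle 3 again reading highest (-7.96, -7.41 and -4.89), and in 3 of 3 TBBC rats (-4.62, -3.93 and -4.62). Both probes therefore placed every TBBC rat above every vehicle rat, but on the second the gap was small, from -4.89 in vehicle 3 to -4.62 in TBBC 3. Of the lung epithelial markers listed, the surfactant genes Sftpc, Sftpb and Sftpa1 were not well above background on any array, nor was the intestinal marker Fabp2. The summed linear signal of the 4 lung markers was 0.085 to 0.19 in vehicle and 0.071 to 0.091 in TBBC rats, and that of the 3 measured intestinal markers was 4.28 to 4.55 and 2.64 to 3.10. Of those 3 intestinal markers, 2 were well above background on any array. Whether these 2 mark intestine in renal cortex was not tested.

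The 2 Slc17 transporters of the set were both higher in TBBC rats. Slc17a1 was at 1.62, 1.40 and 1.67 in vehicle rats and 3.51, 3.10 and 3.19 in TBBC rats, so the groups were wide apart. The log2 fold change was 1.70 ± 0.15 (SE), a 3.25-fold difference, and single TBBC rats were 2.91-fold to 3.84-fold above the vehicle mean. TBBC 1, on the slide of the vehicle arrays, was the highest of the 3. Slc17a3, a voltage-driven exporter of urate and organic anions, was at 4.14, 3.98 and 4.33 in vehicle rats and 5.70, 5.68 and 4.99 in TBBC rats. The groups did not overlap, TBBC 3 was lower than the other TBBC rats, and the log2 fold change was 1.31 ± 0.22 (SE).

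Slc17a1 and Slc17a3 lie in a row of 4 genes of the family on chromosome 17 in the RefSeq gene order, Slc17a4, Slc17a1, Slc17a3 and Slc17a2, with 1 long noncoding RNA, which has no probe, listed between Slc17a1 and Slc17a3. Slc17a4, described as an intestinal organic anion exporter, is not in the set and was at -0.01, -0.20 and -0.15 in vehicle rats and 0.67, 1.09 and 1.11 in TBBC rats. Its log2 fold change was 1.08 ± 0.15 (SE) and did not pass (limma, adjusted p = 0.0509, from 0.0240 to 0.226 over the alternatives); it passed in 5 of the 19, which were without TBBC 1 (adjusted p = 0.0345), quantile normalization (0.0493), normexp correction (0.0275), the filter on all arrays (0.0472) and the trended, robust eBayes (0.0240). Its other 2 probes gave differences of 0.96 and 0.99. Slc17a2, at the other end of the row, pointed the other way, with -0.90, -1.14 and -0.81 in vehicle rats and -1.36, -1.52 and -2.23 in TBBC rats. All TBBC rats were below all vehicle rats there, with a log2 fold change of -0.76 ± 0.24 (SE; limma, adjusted p = 0.172). The histone gene H1f1 beyond it was at -0.12 ± 0.22 (SE), and its groups overlapped. In the row, the first 3 genes had every TBBC rat above every vehicle rat, and the fourth had every TBBC rat below. Of all transcripts, 13.1% were apart with TBBC higher and 15.2% with TBBC lower. The rise of Slc17a1 in this same contrast helped choose the set, and Slc17a3 belongs to it, so nothing is read from the run of 3.

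**Figure D2:**
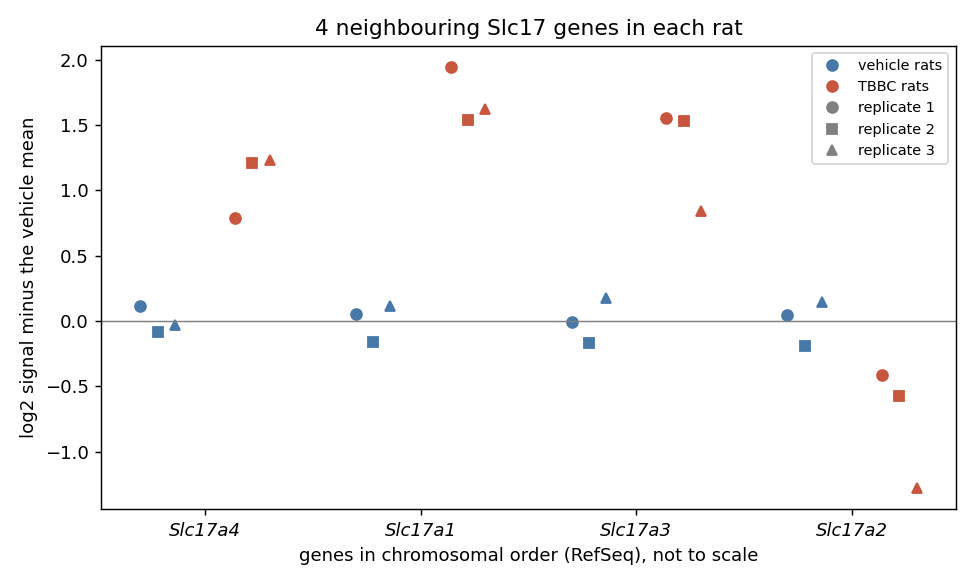
Log2 signal minus the gene's vehicle mean (y axis) of Slc17a4, Slc17a1, Slc17a3 and Slc17a2, in chromosomal order and not to scale (x axis), for each of 3 vehicle rats (blue) and 3 TBBC rats (red); marker shape gives the replicate number. The TBBC rats lie above the vehicle rats for the first 3 genes and below them for Slc17a2.

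The type III cotransporters, found in most tissues, differed more among the treated rats than between the group means. Slc20a1 (PiT-1) was at 1.23, 1.30 and 1.07 in vehicle rats and 1.93, 2.74 and 1.09 in TBBC rats. TBBC 1 and 2 were above all vehicle rats and TBBC 3 was within their range, which gave an SD of 0.82 against 0.12 in vehicle rats (n = 3 each) and a log2 fold change of 0.72 ± 0.39 (SE). The value depended on single rats, being 0.31 without TBBC 2 and 1.13 without TBBC 3. A second probe kept the order of the TBBC rats, with 0.99, 1.70 and 0.13 against 0.17 to 0.27 in vehicle rats, but there TBBC 3 lay below every vehicle rat. Slc20a2 (PiT-2) had the same order of TBBC rats on a smaller scale, 3.57, 3.75 and 3.13 against 3.16, 3.10 and 3.39 in vehicle rats, and a log2 fold change of 0.27 ± 0.18 (SE), which was 0.13 without TBBC 2 and 0.44 without TBBC 3. Its other 3 probes differed by 0.12 to 0.17. The injury marker Havcr1, added after its values were seen, ordered the TBBC rats likewise, at 1.33, 3.83 and 0.99. TBBC 3, the rat with the lowest Slc20a1 and Slc20a2 of its group, had the highest summed leukocyte marker signal, 6.79 against 3.05 to 3.41 in the other TBBC rats and 3.03 to 4.20 in vehicle rats (5 of 6 markers measured, all above background on at least 1 array). It also had the highest fibroblast sum, 27.5 against 11.9 to 15.7 in vehicle rats (4 of 4 markers). The part of these in the Slc20 values was not tested.

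Of the receptors for the phosphate-lowering hormones, Kl and Pth1r were lower in every TBBC rat than in any vehicle rat, and Fgfr1 overlapped. Klotho, which makes FGF receptors responsive to FGF23 and is most abundant in the distal tubule, was at 2.02, 2.04 and 1.82 in vehicle rats and 1.67, 1.00 and 1.29 in TBBC rats. Every TBBC rat was below every vehicle rat, TBBC 2 the furthest, with a log2 fold change of -0.64 ± 0.19 (SE), a 1.56-fold difference. The second Kl probe gave -0.61 and the same order of TBBC rats. The summed signal of thick ascending limb and distal tubule markers (4 of 5 measured) was also lower in every TBBC rat. It was 347, 143 and 207 in TBBC 1 to 3 against 378 to 418 in vehicle rats, in the same order as Kl. The sum weighs bright markers most. Of the 4 markers, 3 were lower on average and 1 higher, with a median log2 fold change of -0.31. Their part in the Kl values was not tested. Within the shared slide, TBBC 1 was 0.29 below the vehicle mean for Kl.

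Pth1r, the G protein-coupled receptor for parathyroid hormone, was at 4.73, 4.86 and 4.71 in vehicle rats and 3.98, 4.36 and 4.30 in TBBC rats. The groups were apart, TBBC 1 was the lowest, and the log2 fold change was -0.55 ± 0.14 (SE), a 1.47-fold difference. The summed proximal tubule signal given above was lowest in TBBC 1 as well (1086, 1389 and 1184 in TBBC 1 to 3), with 9 of 10 markers lower on average and none past the threshold, and its part in the Pth1r values was not tested. Transporters of the set were divided: TBBC 1 was the highest TBBC rat for Slc34a3, Slc17a1 and Slc17a3, and the lowest for Slc34a1 and Slc34a2. With 3 rats, an order can be shared without any link. Fgfr1, a receptor tyrosine kinase used by FGF23, was at 0.48, 0.33 and 0.65 in vehicle rats and 0.35, 0.53 and 0.20 in TBBC rats. These ranges overlapped, with a log2 fold change of -0.13 ± 0.14 (SE). It was -0.21 without vehicle 2 or TBBC 2 and -0.05 without vehicle 3 or TBBC 3, and the other 2 Fgfr1 probes gave -0.03 and -0.09.

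**Figure D3:**
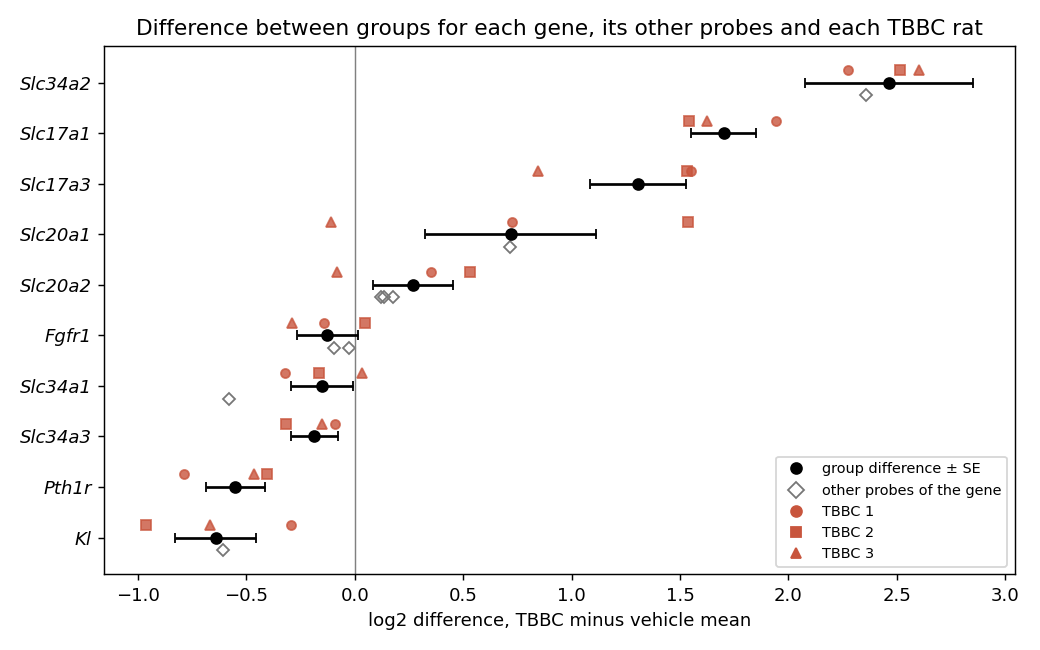
Log2 difference between TBBC and the vehicle mean (x axis) for the 10 genes (y axis, sorted): black points are the group difference ± SE, red markers above them are single TBBC rats, and open diamonds below them are the other probes of the gene. Group differences run from -0.64 for Kl to 2.46 for Slc34a2; the second Slc34a1 probe lies at -0.58 against -0.15 for the first, and the TBBC rats of Slc20a1 lie on both sides of 0.

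The sign of the difference was the same in all 19 alternative settings for each of the 10 genes. Some settings could not change it: with no filter, the filter on all arrays, the trended, robust eBayes or the replicate block, the log2 fold changes were those of the main fit. All settings also reuse the arrays that chose the set. A kept sign thus does not show a difference, as for Fgfr1 at -0.13 ± 0.14 (SE). Replicate spread was larger among TBBC than among vehicle rats in 9 of the 10 (the exception was Slc34a2) and in 74.3% of all transcripts.

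Further genes of phosphate handling, and of urate and organic anion transport, were taken as 7 lists with 76 genes. Of these, 69 had a probe and 60 were tested, and they are called pathway genes below. In them 2 genes rose, none fell and 58 did not pass the threshold (limma); the background is 0.255% of transcripts higher and 0.276% lower. The median log2 fold change was -0.09, against -0.02 over all transcripts, and 40 of the 60 were lower on average. The genes that rose were Egr1 and Abcc4. Egr1 is an immediate early transcription factor that FGF23 signalling induces among other stimuli. Abcc4 is an efflux pump for organic anions and urate, and it comes from the urate and organic anion list. The count was 1 without vehicle 1, vehicle 2, vehicle 3 or TBBC 2 (Egr1 alone), 2 without TBBC 1 (Egr1 and Slc17a4) and 3 without TBBC 3 (Egr1, Abcc2 and Abcc4).

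Of 14 tested genes of the FGF23 and klotho pathway, 1 rose, and the list median was -0.08. Egr1 was at -3.39, -3.37 and -3.60 in vehicle rats and -1.15, -0.96 and -1.02 in TBBC rats, far apart and with little spread in either group. Its log2 fold change was 2.41 ± 0.12 (SE; limma, adjusted p = 0.00434, from 0.00223 to 0.0914 over the alternatives), and it passed in 18 of the 19 alternatives, the 6 with an array left out among them. Sgk1, a kinase downstream of FGF23 and mineralocorticoid signalling, had the next smallest p in that list and was at -0.64 ± 0.25 (SE; limma, adjusted p = 0.221). None of 11 tested PTH pathway genes passed (median -0.15); Gnaq, a G protein subunit that couples Pth1r to phospholipase C, was at 0.36 ± 0.12 and Prkaca, a catalytic subunit of protein kinase A, at -0.21 ± 0.10 (SE).

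Scaffold proteins hold the cotransporters in the brush border, and none of the 6 tested passed (median -0.13). Pdzk1, the PDZ protein that binds Slc34a1 and Slc17a1, was at 6.54, 6.50 and 6.37 in vehicle rats and 5.85, 5.76 and 5.94 in TBBC rats. Its groups were apart by several times their SDs of 0.09, with a log2 fold change of -0.62 ± 0.11 (SE; limma, adjusted p = 0.0696, from 0.0220 to 0.263 over the alternatives). It passed with normexp correction and with a trended, robust eBayes. Nherf1, the scaffold through which PTH releases Slc34a1, was at -0.23 ± 0.11 (SE).

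In the list of phosphate export and intracellular phosphate none of 9 passed (median -0.15), and 8 were lower on average. Xpr1, the phosphate exporter, was at -0.65, -0.53 and -0.87 in vehicle rats and -1.10, -1.33 and -1.35 in TBBC rats. The groups did not overlap, and its log2 fold change was -0.58 ± 0.14 (SE; limma, adjusted p = 0.108). Enpp1, which makes pyrophosphate, was at -0.67 ± 0.18 (SE; limma, adjusted p = 0.130). Among 6 tested genes of vitamin D, calcium sensing and stanniocalcins none passed (median -0.28). Cyp27b1, the renal enzyme that activates vitamin D and that PTH induces, was at 0.07, 0.49 and 0.80 in vehicle rats and -1.25, -1.25 and -0.55 in TBBC rats, with a log2 fold change of -1.47 ± 0.27 (SE; limma, adjusted p = 0.0742, from 0.0366 to 0.258 over the alternatives). It passed with the same 2 settings as Pdzk1. Stc1, stanniocalcin 1, was at -0.60 ± 0.19 (SE; limma, adjusted p = 0.164).

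Urate and organic anion transport is the other known role of Slc17a1 and Slc17a3, and 1 of 9 tested genes of it rose (median 0.04). Abcc4 was at 2.25, 2.10 and 2.18 in vehicle rats and 4.52, 4.61 and 3.75 in TBBC rats. Its log2 fold change was 2.12 ± 0.24 (SE; limma, adjusted p = 0.0343, from 0.00905 to 0.168 over the alternatives), and it did not pass without vehicle 1, 2 or 3 (adjusted p = 0.155, 0.168 and 0.153), TBBC 1 (0.0581) or TBBC 2 (0.0795), with slide as a fixed term (0.142) or with no filter on dim probes (0.0760). In all, 8 of the 19 alternatives ended the call. Abcc2, a brush border efflux pump, was at 2.05, 1.76 and 1.89 in vehicle rats and 6.36, 5.86 and 4.07 in TBBC rats. It did not pass (limma, adjusted p = 0.0622, from 0.00625 to 0.243 over the alternatives). It passed in 4 of the 19, which were without TBBC 3 (adjusted p = 0.00905), the shared slide alone (0.00625), normexp correction (0.0341) and the trended, robust eBayes (0.0309).

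**Figure D4:**
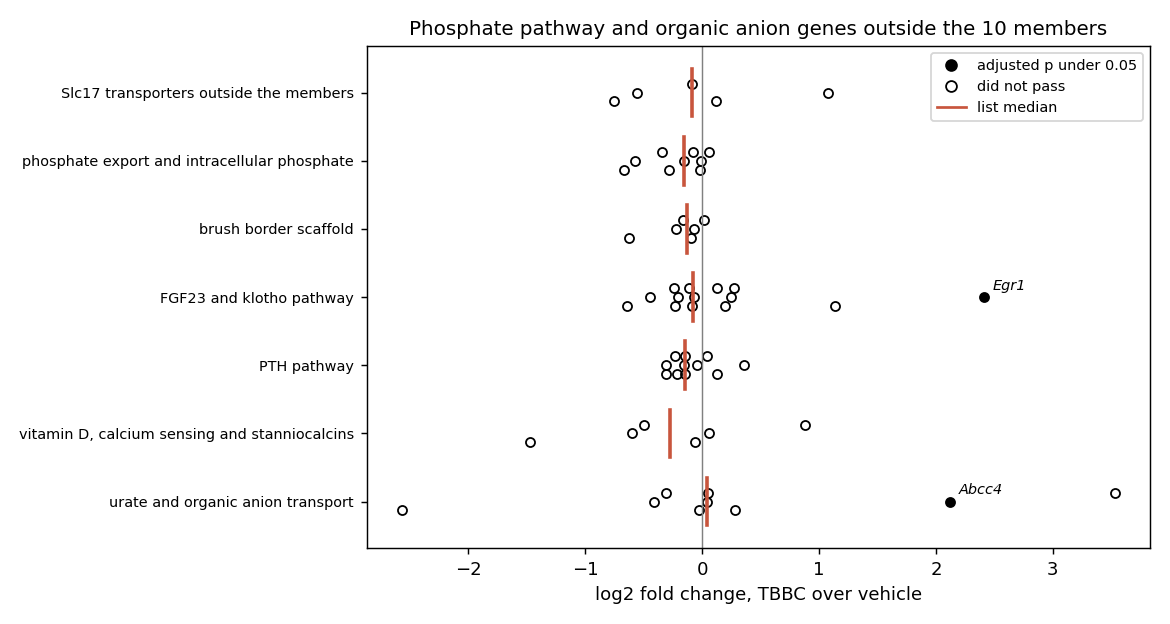
Log2 fold change, TBBC over vehicle (x axis), of the 60 tested genes in 7 lists (y axis); filled points passed an adjusted p of 0.05 (limma), open points did not, and the red bar is the list median. Egr1 at 2.41 and Abcc4 at 2.12 are the filled points, and list medians lie between -0.28 and 0.04.

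The named genes whose profile over the 6 arrays lay nearest to Slc17a1 and to Slc34a2 were found by the root mean square difference of levels minus the vehicle mean, over 12282 named genes outside the set. This distance includes the difference between the groups, which helped choose both genes. Genes with a similar fold change therefore rank as near, and no shared regulation is read from the ranking. The nearest to Slc17a1 were Pck2 (mitochondrial phosphoenolpyruvate carboxykinase), with a difference of 0.15, then Rgs11 (0.18), Car13, a carbonic anhydrase (0.24), Abcc3, an efflux pump (0.26), and Bcl3, an IkB family protein (0.29). Pck2 was 2.00, 1.63 and 1.74 above its vehicle mean in TBBC 1 to 3, where Slc17a1 was 1.94, 1.54 and 1.62 above its own. The brightest Rgs11 probe, which is the one compared, differed by 1.55, and its other 2 probes by -0.37 and -0.08, so that gene's place rests on 1 probe.

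The nearest to Slc34a2 were less close: Gstp1, a glutathione transferase (0.29), Rprml (0.41), Cybrd1, a ferric reductase (0.51), Sdcbp2, a syntenin (0.52), and Gpr15lg, a secreted ligand of the receptor GPR15 (0.53). Gstp1 was 2.45, 2.52 and 2.25 above its vehicle mean in TBBC 1 to 3, where Slc34a2 was 2.27, 2.51 and 2.60 above its own. The Rprml probe was well above background in 0 of 3 vehicle rats and 3 of 3 TBBC rats, so its distance rests on vehicle values at background; the probes of the other 4 were well above background in all rats.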

How the data were processed

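Renal cortex RNA of 3 vehicle and 3 TBBC rats was measured on 6 arrays. Per the file headers, the authors extracted the deposited spot intensity values with Feature Extraction 10.7.1.1 from Agilent (10.7 in the submitters' processing notes). The program subtracts background and detrends each array but does not scale arrays to each other. The deposited value table holds a linear ratio of processed signal to nearly the same percentile as used here, unlogged and uncentred (column medians 0.107 to 0.114). The sources used here do not give the authors' own test of the groups.

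After 1439 control spots were removed from 62976, transcript accessions (version ignored) were looked up in RefSeq genes of assembly GRCr8, and 28193 of 61537 probes were named, for 15639 genes. The file headers name another build, so gene coordinates are not given; promoter windows carry the promoter table's build. Each signal was divided by its array's 75th percentile and log2 transformed. Flagged spots (0 to 9 an array) were dropped. A probe entered the test when it was well above background on every array of at least 1 group, and the brightest such probe stood for its gene; unnamed probes were kept singly. Limma 3.58.1 in R 4.3.3 (lmFit and eBayes, two-sided) compared the groups, with Benjamini-Hochberg adjustment over 32962 transcripts and a threshold of 0.05. Precision is limited by the number of arrays. The procedure was also run on simulated arrays with independent noise, known fold changes and no slide effect. That run does not bear on how the calls move between settings.

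The set of 10 genes, the pathway and marker lists, the motifs and the tests were chosen with earlier results of these data known. The genes named are the 10, list genes past the threshold, the 2 genes of each list with the smallest p, the 5 nearest profiles to Slc17a1 and to Slc34a2, and the tested neighbours of Slc17a1; Havcr1 and H1f1 were added after their values were seen. Alternatives were other scalings, background correction, the value table, filters, probe averaging, a trended and robust eBayes, slide as a fixed term, random block (statmod 1.5.0) or shared slide alone, the replicate number as a block, and each array left out.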

Additional observations from a re-analysis of the deposited data

How the results depend on the processing

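The 10 genes' median log2 fold change ran from 0.0027 without vehicle 2 to 0.20 without TBBC 3; it is taken over genes that differ in both directions, so it says nothing on the stability of any one of them. Each gene kept its sign in all 19, some of which, as said above, could not change it. The counts of calls moved more. Against 175 transcripts past the limma threshold and 2 of 60 pathway genes, normexp correction gave 642 and 6, no filter on dim probes 52 and 1, a trended and robust eBayes 1087 and 6, slide as a fixed term 48 and 1, the shared slide alone 307 and 3, and 1 array left out 6 to 274 and 1 to 3. The cause was not tested. Under the fixed slide term and the shared slide alone, the group difference rests on TBBC 1. Rats with the same replicate number did not deviate together (correlations of -0.095, 0.033 and -0.074 for numbers 1 to 3). No rat correlated best with the rat of its own number in the other group. With the replicate number as a block, limma called 0 transcripts, 0 of the 10 genes and 0 pathway genes (5368 transcripts at an unadjusted p under 0.05). In that limma fit Egr1 had an adjusted p of 0.0914 and Abcc4 of 0.116. Slc34a2 is limited by its vehicle signal, one probe of it being well above background in 1 of 3 vehicle rats.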
